A study of Mus musculus with 9 samples.

Results

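The genes followed here are 8 CXC chemokine ligands, *Cxcl1*, *Cxcl2*, *Cxcl9*, *Cxcl10*, *Pf4*, *Cxcl12*, *Cxcl14*, and *Cxcl16*, taken by symbol from the 50559 genes of the count tables. They were read in CD45+CD11b+ cells, the myeloid fraction of leukocytes, sorted from the quadriceps of 4.5-week-old *mdx* mice, which lack dystrophin. All mice were *mdx* and received vehicle, the mineralocorticoid receptor antagonist spironolactone, or the glucocorticoid prednisolone in the drinking water for 7 days, and no healthy group was sequenced. Each of the 3 groups had 3 libraries, each made from the pooled cells of 3 mice, so that *P* values rest on the spread between pools. Both sexes were used in each group, and the sexes within a pool are not given. Dead cells were not separated from living ones in the sort. All 8 genes passed the low-count filter, among 16618 genes tested.

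CXC chemokines are small secreted proteins that direct leukocyte movement through G protein-coupled receptors. CXCL1 and CXCL2 act on CXCR2 and draw neutrophils, and their genes are classical targets of NF-kappaB, whereas CXCL9 and CXCL10 act on CXCR3, draw T and NK cells, and are induced by interferon gamma. CXCL12 acts on CXCR4 and is made mainly by stromal and endothelial cells, PF4 is the platelet factor 4 also made by some macrophages, CXCL14 is made constitutively in many tissues, and CXCL16 is a membrane-bound ligand of CXCR6 that ADAM10 can release. Dystrophic muscle is infiltrated by macrophages and neutrophils, cells that can make several of these ligands and answer some of them.

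Each library held 31469815 to 32943512 counts that fell on genes, and the lowest count of any ligand gene in any library was 76. The myeloid genes *Ptprc* (598 CPM), *Itgam* (1230 CPM), and *Lyz2* (10203 CPM) were abundant over the 9 libraries, in TMM-normalized CPM (counts scaled to library size). Markers of other cells were measured too. The summed neutrophil markers (8 genes) were 4530 CPM in vehicle replicate 3 and 3420 CPM in spironolactone replicate 3, against 629 to 1397 CPM in the other 7 libraries. The summed endothelial markers (8 genes, none below 1 CPM) were 54.4 to 93.8 CPM with vehicle, 123 to 194 CPM with spironolactone, and 70.1 to 97.3 CPM with prednisolone. The summed monocyte markers (6 genes) were 1096 CPM in vehicle replicate 1, against 2567 and 2379 CPM in vehicle replicates 2 and 3. They were 1494 to 1761 CPM with spironolactone and 2065 to 2805 CPM with prednisolone. *Xist*, which is made from the inactive X chromosome of females, ranged from 65.3 to 712 CPM over the libraries. Both extremes were spironolactone libraries, replicate 3 (65.3 CPM) and replicate 1 (712 CPM).

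**Figure D1:**
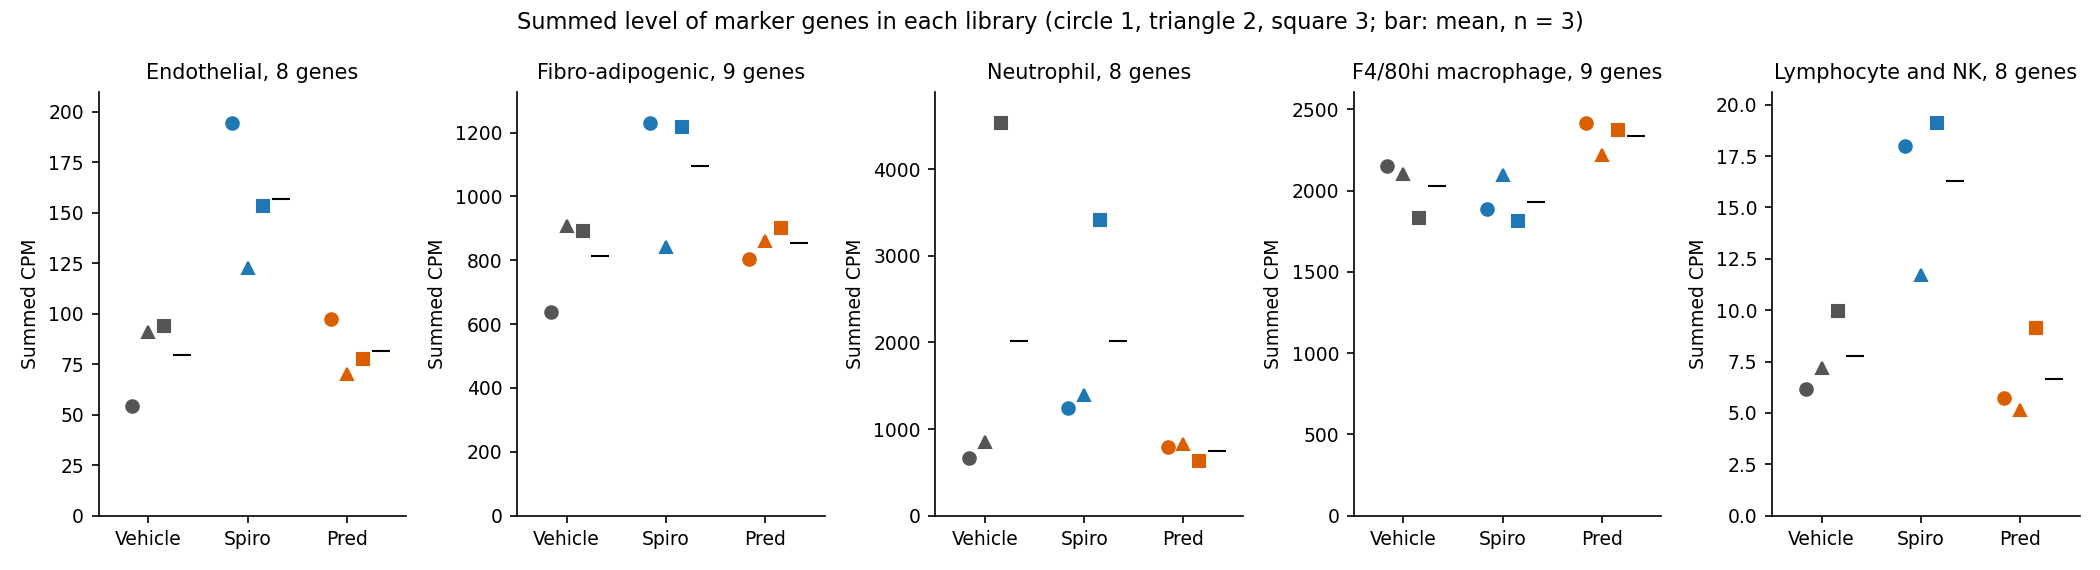
Summed CPM of marker genes of 5 cell types in each library (y axis) by treatment group (x axis), with the number of genes in each list; symbols are replicates 1 to 3 and bars are group means. The endothelial and lymphocyte and NK sums of the spironolactone libraries lie above those of the other groups, and the neutrophil sums of vehicle replicate 3 (4530 CPM) and spironolactone replicate 3 (3420 CPM) stand apart.

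*Pf4*, *Cxcl1*, *Cxcl2*, *Cxcl9*, and *Cxcl10* lie on chromosome 5, with *Cxcl1* (chr5:91039094-91040974) near *Cxcl2* (chr5:91051730-91053797) on the forward strand of GRCm39 and *Cxcl9* (chr5:92469206-92475945) near *Cxcl10* (chr5:92494497-92496748) on the reverse strand. *Pf4* spans chr5:90918479-90922110. *Cxcl12* is at chr6:117144945-117158328, *Cxcl14* at chr13:56436352-56444603, and *Cxcl16* at chr11:70344517-70352620. The sequences of the neutrophil-drawing and the interferon-induced pairs are shown because each pair is described together in the results. They are the 250 bases before the RefSeq start (table on GRCm38.p6, found once each in GRCm39), 5′ to 3′ on the strand of the gene, at chr5:91038854-91039103, chr5:91051508-91051757, chr5:92475939-92476188, and chr5:92496749-92496998. Capitals mark matches, on either strand, to an NF-kappaB motif (GGNNTTTCC), an interferon response motif (GAAANNGAA), and an AP-1 motif (TGANTCA), which do not overlap each other here.
Cxcl1: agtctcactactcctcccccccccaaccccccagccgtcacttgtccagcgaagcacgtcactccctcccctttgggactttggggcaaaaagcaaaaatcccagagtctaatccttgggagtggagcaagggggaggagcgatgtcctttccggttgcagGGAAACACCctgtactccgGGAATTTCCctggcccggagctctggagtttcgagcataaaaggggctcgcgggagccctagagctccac
Cxcl2: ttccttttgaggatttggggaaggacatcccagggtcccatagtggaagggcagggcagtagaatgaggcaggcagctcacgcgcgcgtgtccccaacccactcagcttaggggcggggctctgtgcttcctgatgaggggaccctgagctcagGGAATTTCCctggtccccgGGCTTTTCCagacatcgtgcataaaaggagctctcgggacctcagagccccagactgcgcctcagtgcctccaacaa
Cxcl9: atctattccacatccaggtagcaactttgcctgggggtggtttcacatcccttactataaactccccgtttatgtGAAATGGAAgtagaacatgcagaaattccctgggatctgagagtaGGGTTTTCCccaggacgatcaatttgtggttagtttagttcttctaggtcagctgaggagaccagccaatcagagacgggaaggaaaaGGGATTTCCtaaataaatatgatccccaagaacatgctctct
Cxcl10: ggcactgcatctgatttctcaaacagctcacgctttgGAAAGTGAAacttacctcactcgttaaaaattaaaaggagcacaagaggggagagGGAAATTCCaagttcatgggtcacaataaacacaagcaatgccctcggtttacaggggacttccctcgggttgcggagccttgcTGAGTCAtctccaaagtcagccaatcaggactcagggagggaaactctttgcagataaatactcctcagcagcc

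The *Cxcl1* window held the NF-kappaB motif at -70 (GGAATTTCC) and, on the other strand, at -89 (GGAAACACC), counting from the RefSeq start. The *Cxcl2* window held it at -96 (GGAATTTCC) and -77 (GGCTTTTCC). *Cxcl9* held it at -130 (GGGTTTTCC) and -42 (GGGATTTCC), and *Cxcl10* held it on the other strand at -158 (GGAAATTCC). The interferon response motif was at -175 in *Cxcl9* (GAAATGGAA) and at -213 in *Cxcl10* (GAAAGTGAA), and the AP-1 motif was at -74 in *Cxcl10* (TGAGTCA). Of the other windows searched, that of *Cxcl14* held an interferon response match at -172 (GAAACAGAA), and those of *Pf4* and *Cxcl12* held no match to these letters. The RefSeq starts behind the *Pf4* and *Cxcl12* windows lie 1815 bases (*Pf4*) and 551 bases (*Cxcl12*) downstream of the GENCODE gene starts, so that both windows fall inside the gene spans given here, and the *Cxcl14* start lies 239 bases downstream. *Cxcl16* had no entry. Of 32851 windows of the same length, 4.93% held the NF-kappaB motif, 7.13% the interferon response motif, and 6.75% the AP-1 motif. A match describes the letters and not a bound site.

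Levels were compared between genes only per exon length, as TPM (counts scaled to exon length and library size) averaged over the 9 libraries. The length joins all annotated exons of a gene. It covers the whole gene span for *Cxcl1* (1881 bases), *Cxcl2* (2068 bases), and *Cxcl10* (2252 bases), and is 2462 bases for *Pf4* and 8346 bases for *Cxcl12*. Such lengths can exceed that of the mRNA by unequal amounts, so that the order below depends on them. *Cxcl2* was highest, at 1885 TPM (1105 to 3126), and its range lay above that of every other ligand. *Pf4* followed at 414 TPM (346 to 525), *Cxcl1* at 249 TPM (97.0 to 448), and *Cxcl10* at 186 TPM (92.4 to 349), and each overlapped the next. *Cxcl16*, at 121 TPM (99.1 to 151), overlapped both *Cxcl10* and *Cxcl14*, at 81.7 TPM (56.3 to 141). *Cxcl12*, at 9.59 TPM (4.58 to 16.6), and *Cxcl9*, at 8.41 TPM (3.67 to 12.0), were the lowest and overlapped. By these lengths, the myeloid fraction held more RNA of the neutrophil-drawing ligands than of the stromal ligand *Cxcl12*.

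Against vehicle, no ligand passed an adjusted *P* of 0.05 with either drug (edgeR quasi-likelihood test, two-sided, adjusted over all genes), where 1.76% of all genes tested did with prednisolone and 0.0181% with spironolactone. An unadjusted *P* under 0.05 was reached by 3 of the 8 ligands with spironolactone (*Cxcl1*, *Cxcl2*, *Cxcl12*), against 9.29% of all genes, and by 3 with prednisolone (*Cxcl1*, *Cxcl2*, *Cxcl14*), against 14.2%. The median log2 fold change of the 8 was -0.03 with spironolactone and -0.30 with prednisolone, against 9.04e-05 and -0.014 over all genes. Between the drugs, 1 of the 8, *Cxcl14*, passed the adjusted threshold, where 5.17% of all genes did, and 3 had an unadjusted *P* under 0.05 (*Cxcl9*, *Cxcl12*, *Cxcl14*), against 22.5%. Both drugs are set against the same vehicle libraries, so that their changes are not independent. In bulk RNA of a sorted fraction, fewer cells of a type and less RNA per cell cannot be told apart.

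**Figure D2:**
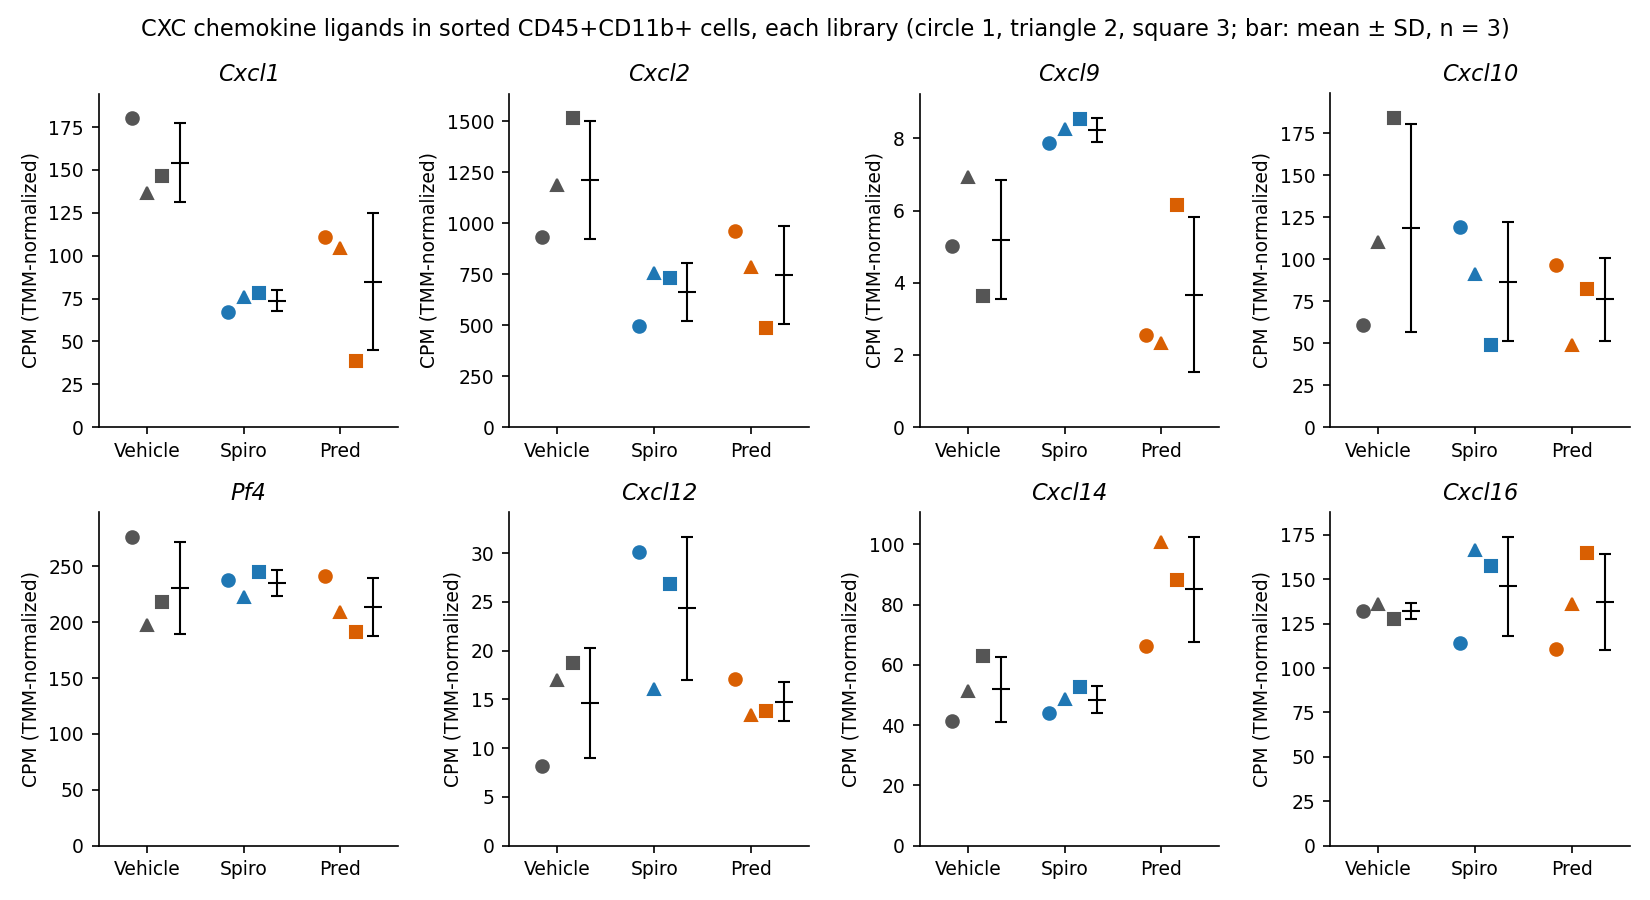
TMM-normalized CPM (y axis) of each ligand gene in every library by treatment group (x axis); symbols are replicates 1 to 3, and bars are the mean ± SD (n = 3). All spironolactone and prednisolone libraries lie below the vehicle range for *Cxcl1*, and the prednisolone libraries lie above the vehicle and spironolactone libraries for *Cxcl14*.

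*Cxcl1* and *Cxcl2*, the CXCR2 ligands, were lower in the mean with both drugs than with vehicle. *Cxcl1* was at 180, 136, and 146 CPM in the vehicle libraries, at 67.0, 75.9, and 78.5 CPM with spironolactone, and at 111, 105, and 38.8 CPM with prednisolone. Every library of either drug lay below the lowest vehicle library, as 6.50% of all genes did with spironolactone and 9.27% with prednisolone. The log2 fold change of *Cxcl1* was -1.06 ± 0.37 (SE) with spironolactone (unadjusted *P* = 0.0223, edgeR adjusted *P* = 0.436). It was -0.86 ± 0.36 with prednisolone (unadjusted *P* = 0.0493, edgeR adjusted *P* = 0.349), and -0.51 without prednisolone replicate 3 (edgeR adjusted *P* = 0.0948). The *Cxcl1* spread was uneven between groups, with an SD of 6.05 CPM for spironolactone and 40.1 CPM for prednisolone (n = 3 each), the latter set by prednisolone replicate 3. With only the vehicle and spironolactone libraries in the edgeR fit the *Cxcl1* value was -1.06 with an adjusted *P* of 0.0228, and without prednisolone replicate 3 it was -1.06 with an adjusted *P* of 0.00725, so that this call depended on which libraries set the spread.

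*Cxcl2* was at 934, 1188, and 1515 CPM with vehicle, at 498, 756, and 731 CPM with spironolactone, and at 962, 788, and 488 CPM with prednisolone. The spironolactone libraries all lay below the vehicle range, as 6.50% of all genes did, and prednisolone replicate 1 lay inside it. The log2 fold change was -0.87 ± 0.28 with spironolactone (unadjusted *P* = 0.0116, edgeR adjusted *P* = 0.344) and -0.70 ± 0.27 with prednisolone (unadjusted *P* = 0.0315, edgeR adjusted *P* = 0.288). The highest *Cxcl2* library, vehicle replicate 3, had the most neutrophil marker RNA (4530 CPM), and spironolactone replicate 3, next in those markers (3420 CPM), had 731 CPM of *Cxcl2*, against 756 CPM in spironolactone replicate 2. Without vehicle replicate 3, *Cxcl2* was at -0.69 with spironolactone and -0.51 with prednisolone. The part of neutrophil number in the *Cxcl2* values was not tested. Directly between the drugs, the log2 difference (spironolactone over prednisolone) was -0.20 for *Cxcl1* (95% interval -1.06 to 0.65) and -0.17 for *Cxcl2* (-0.79 to 0.45), intervals that include differences of either sign. Without prednisolone replicate 3 the *Cxcl1* difference was -0.55 (edgeR adjusted *P* = 0.0396), and without prednisolone replicate 1 it was 0.039.

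*Cxcl3*, a further CXCR2 ligand encoded in the same cluster as *Cxcl1*, was 32.5 ± 15.1 CPM with vehicle, 15.1 ± 8.50 CPM with spironolactone, and 16.3 ± 4.30 CPM with prednisolone (SD, n = 3), and its groups overlapped. Its log2 fold change was -1.11 ± 0.55 with spironolactone (edgeR adjusted *P* = 0.611) and -0.99 ± 0.54 with prednisolone (edgeR adjusted *P* = 0.488). Per exon length it was at 27.0 TPM over the 9 libraries, below *Ppbp*, a platelet chemokine, at 41.5 TPM. Of the 7 other CXC ligands on the list, 4 passed the filter and 0 passed the threshold with prednisolone, with spironolactone, or between the drugs (edgeR; 0 also at an unadjusted *P* under 0.05, which 14.2%, 9.29%, and 22.5% of all genes had), and *Cxcl5*, *Cxcl11*, *Cxcl13*, *Cxcl15*, and *Cxcl17* averaged under 1 CPM.

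A list of 18 NF-kappaB targets, which holds none of the 8 ligands, was read beside *Cxcl1* and *Cxcl2*. With spironolactone all 18 had a negative log2 fold change (median -0.52, against 9.04e-05 over all genes), and 9 lay wholly below the vehicle range, where 6.50% of all genes did. In edgeR 0 passed the adjusted threshold and 9 had an unadjusted *P* under 0.05, against 9.29% of all genes, and 4 passed in DESeq2, against 1.60%. In the same comparison all 8 endothelial (median 1.15), all 7 lymphocyte and NK (1.17), all 6 muscle (0.91), and all 9 fibro-adipogenic genes tested (0.55) were positive. All 6 monocyte genes were negative (median -0.18), with 0 at an unadjusted *P* under 0.05 in edgeR, against 9.29% of all genes. The part of these markers was not tested. Without spironolactone replicate 1, 15 of the 18 NF-kappaB targets were negative. The number past the threshold was 3 without prednisolone replicate 3 and 1 without spironolactone replicate 2. In those fits 0.111% and 0.199% of all genes passed, against 0.0181% with all libraries. With prednisolone 13 of 18 were negative (median -0.27, against -0.014 over all genes) and 0 passed the threshold in edgeR (4 at an unadjusted *P* under 0.05, against 14.2% of all genes, and 1 in DESeq2, against 4.64%). The smallest *P* was that of *Nfkbie*, an NF-kappaB inhibitor, with spironolactone, from 92.9 ± 2.69 to 62.6 ± 13.4 CPM (SD, n = 3; -0.57 ± 0.14, edgeR adjusted *P* = 0.164). With prednisolone it was that of *Cd83*, a marker of activated antigen-presenting cells (261 ± 69.1 to 164 ± 35.8 CPM; -0.67 ± 0.19, edgeR adjusted *P* = 0.119). *Il1b*, which encodes the cytokine IL-1 beta and had the most counts of the list, was at 1280 TPM over the 9 libraries, next to *Nfkbia*, an NF-kappaB inhibitor gene, at 1527 TPM.

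**Figure D3:**
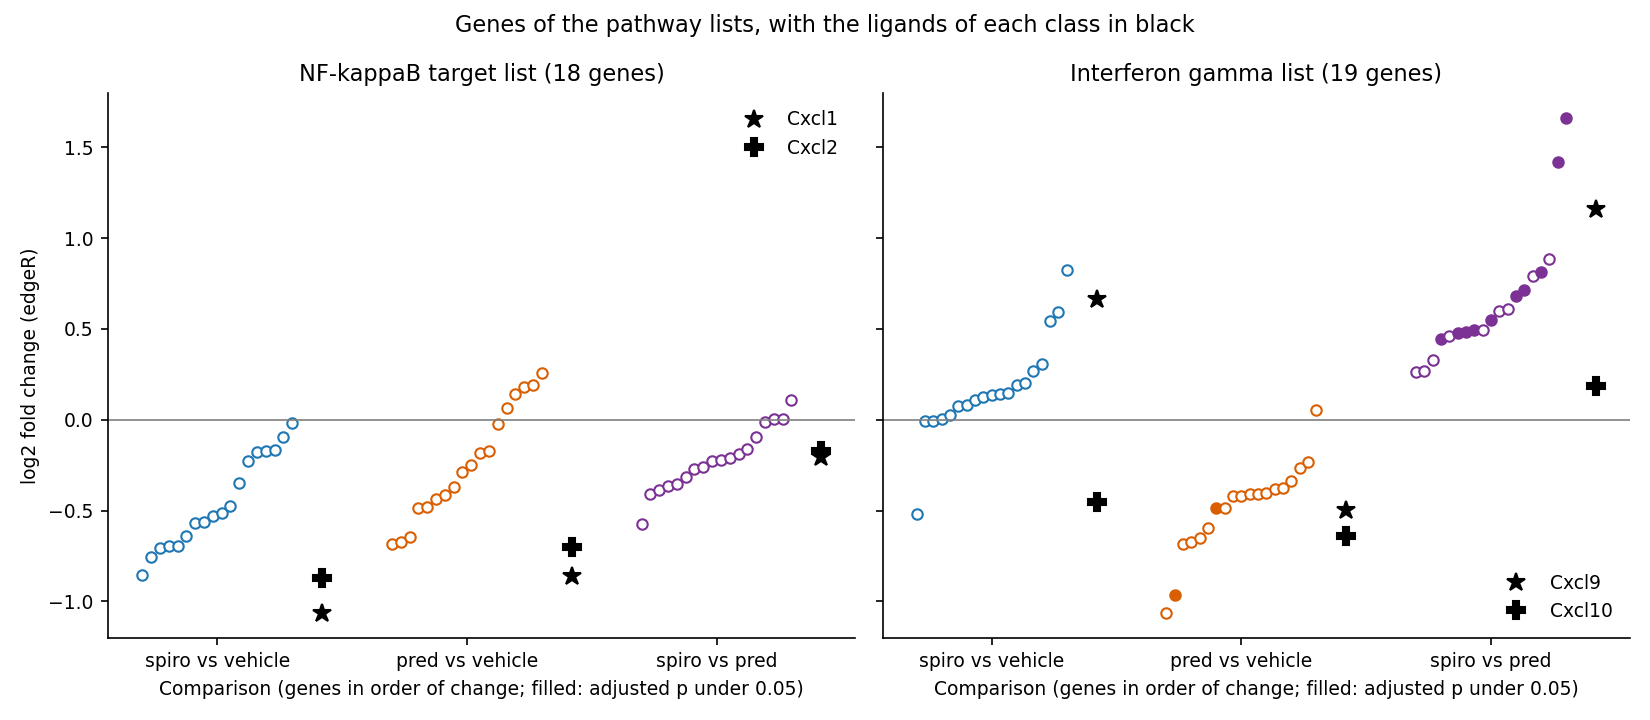
log2 fold change from edgeR (y axis) of each gene of the NF-kappaB list (18 genes) and of the interferon gamma list (19 genes) in the 3 comparisons (x axis), with the ligand genes of each class in black; filled circles have an adjusted *P* under 0.05. All 18 NF-kappaB genes are below 0 with spironolactone against vehicle, and all 19 interferon gamma genes are above 0 with spironolactone against prednisolone, where 10 are filled.

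*Cxcl9* and *Cxcl10*, the CXCR3 ligands, differed from one another in their values. *Cxcl9* was at 5.02, 6.93, and 3.65 CPM with vehicle, at 7.88, 8.25, and 8.55 CPM with spironolactone, and at 2.55, 2.32, and 6.15 CPM with prednisolone. All spironolactone libraries lay above every vehicle and every prednisolone library, as 6.99% and 15.1% of all genes did, and the prednisolone and vehicle ranges overlapped. The log2 difference between spironolactone and prednisolone was 1.16 ± 0.34 (unadjusted *P* = 0.00528, edgeR adjusted *P* = 0.0719). It passed the threshold in DESeq2 (adjusted *P* = 0.00723, where 10.1% of all genes passed) and limma-voom (adjusted *P* = 0.0344), and without prednisolone replicate 3 it was 1.75 (edgeR adjusted *P* = 0.00737). In edgeR it missed the threshold without any other single library (0.92 and adjusted *P* = 0.206 without prednisolone replicate 2, 0.95 and 0.226 without prednisolone replicate 1) and with *Xist* as a covariate (1.11, adjusted *P* = 0.104). Against vehicle, *Cxcl9* was at 0.66 ± 0.33 with spironolactone (edgeR adjusted *P* = 0.581) and at -0.50 ± 0.34 with prednisolone (edgeR adjusted *P* = 0.569). The prednisolone value moved widely with single libraries, to -1.09 without prednisolone replicate 3 (edgeR adjusted *P* = 0.0921), -0.29 and -0.25 without prednisolone replicates 1 and 2, and -0.24 without vehicle replicate 2.

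The summed lymphocyte and NK markers (8 genes, of which *Ncr1*, *Cd3e*, *Cd3g*, and *Trbc2* averaged under 1 CPM) moved beside *Cxcl9*, at 6.17 to 9.94 CPM with vehicle, 11.7 to 19.1 CPM with spironolactone, and 5.13 to 9.12 CPM with prednisolone. Their part in the *Cxcl9* values was not tested. *Cxcl10* was at 60.9, 110, and 184 CPM with vehicle, at 119, 91.2, and 49.0 CPM with spironolactone, and at 96.6, 49.0, and 82.5 CPM with prednisolone. The 3 groups overlapped, and the vehicle libraries alone spanned the values of all drug libraries but the lowest of each drug. Its log2 fold change was -0.45 ± 0.51 with spironolactone (95% interval -1.68 to 0.78) and -0.64 ± 0.51 with prednisolone (-1.87 to 0.59), and without vehicle replicate 3 the spironolactone value was 0.011 and the prednisolone value -0.17. *Cxcl10* overlaps *Art3* on the opposite strand, and as the strand setting of the counting is not given in the sources used here, reads of the overlap cannot be told apart.

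Of the 19 interferon gamma-induced genes on a list without the CXCR3 ligands, 18 were negative with prednisolone (median -0.42, against -0.014 over all genes) and 2 fell past the threshold, where 1.76% of all genes passed it. In the same comparison 8 of 8 neutrophil genes (median -2.69) and 6 of 7 lymphocyte and NK genes tested (median -0.64) were negative. In edgeR 0 of them passed the threshold (3 and 1 at an unadjusted *P* under 0.05, against 14.2% of all genes). The neutrophil sums were 671, 856, and 4530 CPM in vehicle replicates 1, 2, and 3, against 629 to 825 CPM with prednisolone. They thus differed mainly through vehicle replicate 3. The part of these markers was not tested. The 2 interferon gamma genes were *Cd274*, which encodes the checkpoint ligand PD-L1 (69.1 ± 6.66 to 35.4 ± 2.74 CPM; -0.97 ± 0.11, edgeR adjusted *P* = 0.00116), and *Irf1*, a transcription factor of the interferon response (89.2 ± 3.24 to 63.7 ± 1.88 CPM; -0.49 ± 0.09, edgeR adjusted *P* = 0.0122). *Cd274* stayed past the threshold without any single library, whereas *Irf1* lost it without prednisolone replicate 2 (adjusted *P* = 0.0985), prednisolone replicate 3 (0.0568), or vehicle replicate 2 (0.0527). This left 1 gene past it, where 0.402%, 0.694%, and 0.741% of all genes passed. Without vehicle replicate 1 there were 6, where 4.83% of all genes passed. With spironolactone 16 of the 19 were positive (median 0.14) and 0 passed the threshold in edgeR (5 at an unadjusted *P* under 0.05, against 9.29% of all genes, and 2 past the threshold in DESeq2, against 1.60%). This direction rested on single libraries, since 10 of the 19 were negative without spironolactone replicate 1 and 9 without vehicle replicate 1. The smallest *P* with spironolactone was that of *Cd274*, at -0.52 ± 0.11 (edgeR adjusted *P* = 0.128).

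Between the drugs all 19 were higher with spironolactone (median 0.55, against 0.026 over all genes), 15 lay wholly above the prednisolone range, against 15.1% of all genes, and 10 passed the threshold, against 5.17%. Markers of other cells were also higher with spironolactone in this comparison, namely 8 of 8 endothelial genes (4 past the threshold, median 1.04) and 6 of 7 lymphocyte and NK genes tested (3 past the threshold, median 1.88). So were 8 of 8 neutrophil (median 2.78), 8 of 9 fibro-adipogenic (0.41), and 5 of 6 muscle genes tested (0.53). In these 3 lists 0 passed the threshold in edgeR, and 4, 3, and 3 had an unadjusted *P* under 0.05, against 22.5% of all genes. The part of all these markers in the differences of the interferon gamma list was not tested. The largest differences among the 10 were *Gbp4* (1.66 ± 0.26, edgeR adjusted *P* = 0.00496) and *Iigp1* (1.42 ± 0.26, edgeR adjusted *P* = 0.0105), a guanylate-binding protein and an immunity-related GTPase. The other 8 were *Irf1*, *Gbp3*, *Cd274*, the antigen-processing genes *Tap1*, *Psmb8*, and *Psmb9*, the cytokine signalling inhibitor *Socs1*, and the MHC class II regulator *Ciita*, at 0.45 to 0.81. Without spironolactone replicate 1, 1 of the 19 was negative. The count past the threshold was 3, 2, and 6 without prednisolone replicates 1, 2, and 3, where 1.77%, 1.35%, and 2.22% of all genes passed. It was 4 and 5 without spironolactone replicates 2 and 3, where 2.41% and 1.58% of all genes passed.

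*Cxcl14* was the ligand that passed the threshold between the drugs. It was at 41.2, 51.4, and 62.9 CPM with vehicle, at 44.1, 48.7, and 52.8 CPM with spironolactone, and at 66.2, 101, and 88.0 CPM with prednisolone. All prednisolone libraries lay above every other library, as 10.4% of all genes did against vehicle, and 15.2% of all genes had every spironolactone library below the prednisolone range. *Cxcl14* was lower with spironolactone than with prednisolone by a log2 difference of -0.81 ± 0.17 (95% interval -1.18 to -0.44, edgeR adjusted *P* = 0.0203). Against vehicle it was at 0.71 ± 0.17 with prednisolone (edgeR adjusted *P* = 0.0593, 0.00124 in DESeq2) and at -0.10 ± 0.17 with spironolactone (95% interval -0.46 to 0.27, edgeR adjusted *P* = 0.916). The prednisolone value passed the threshold without prednisolone replicate 1 (0.87, edgeR adjusted *P* = 0.0204) or vehicle replicate 3 (0.88, edgeR adjusted *P* = 0.0304), and with the replicate block (0.72, edgeR adjusted *P* = 0.00435). It was 0.57 without prednisolone replicate 2 (edgeR adjusted *P* = 0.229), and its adjusted *P* was 0.116 with the vehicle and prednisolone libraries alone.

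The difference of *Cxcl14* between the drugs kept its sign in all 9 fits that each left out a library and lost the threshold in 5 of them. Its adjusted *P* in edgeR was 0.0793 and 0.0631 without prednisolone replicates 2 and 3 and 0.0595, 0.0645, and 0.0641 without spironolactone replicates 1, 2, and 3. With *Xist* as a covariate it was -0.84 (adjusted *P* = 0.0336). The F4/80hi macrophage markers (9 genes, none below 1 CPM) summed to 2219 to 2414 CPM with prednisolone, 1833 to 2154 CPM with vehicle, and 1810 to 2097 CPM with spironolactone, and 3 of them, *Cd163*, *Lyve1*, and *F13a1*, were lower with spironolactone than with prednisolone past the threshold, whereas *Gas6* was higher, where 5.17% of all genes passed it. Their part in the *Cxcl14* difference was not tested.

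*Cxcl12*, the stromal ligand of CXCR4, was at 8.18, 16.9, and 18.7 CPM with vehicle, at 30.2, 16.1, and 26.8 CPM with spironolactone, and at 17.1, 13.4, and 13.8 CPM with prednisolone. Spironolactone replicates 1 and 3 were the highest libraries, and replicate 2 lay within the vehicle range. The log2 fold change was 0.74 ± 0.32 with spironolactone (unadjusted *P* = 0.0447, edgeR adjusted *P* = 0.523), 0.02 ± 0.32 with prednisolone (95% interval -0.70 to 0.74), and 0.72 ± 0.32 between the drugs (unadjusted *P* = 0.0486, edgeR adjusted *P* = 0.218). Without vehicle replicate 1, its lowest library, *Cxcl12* was at 0.45 with spironolactone against vehicle (edgeR adjusted *P* = 0.521). Spironolactone replicates 1 and 3 also had the highest endothelial sums (194 and 153 CPM), fibro-adipogenic sums (1229 and 1218 CPM), and skeletal muscle sums (450 and 627 CPM) of the 9 libraries. Against vehicle, all 8 endothelial, all 9 fibro-adipogenic, and all 6 muscle genes tested were positive with spironolactone, and 0 of them passed the adjusted threshold in edgeR (7, 6, and 5 at an unadjusted *P* under 0.05, against 9.29% of all genes). Between the drugs, 4 of the 8 endothelial genes were higher with spironolactone past the threshold, against 5.17% of all genes, and 7 lay wholly above the prednisolone range, against 15.1%. The part of cells outside the myeloid gate in the *Cxcl12* values was not tested.

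Among the receptors, *Cxcr4*, the CXCL12 receptor and the highest in TPM of the 8 on the list (708 TPM over the 9 libraries), fell with prednisolone. It was at 349, 340, and 330 CPM with vehicle, at 256, 297, and 321 CPM with spironolactone, and at 222, 227, and 250 CPM with prednisolone. Every library of either drug lay below the vehicle range, as 9.27% of all genes did with prednisolone and 6.50% with spironolactone. Its log2 fold change was -0.54 ± 0.10 with prednisolone (edgeR adjusted *P* = 0.0130) and -0.22 ± 0.10 with spironolactone (edgeR adjusted *P* = 0.508). The prednisolone call was lost without prednisolone replicate 1 (adjusted *P* = 0.0639) or 2 (0.101), and the spironolactone value was -0.14 without spironolactone replicate 1. *Cxcr4* was 1 of 7 receptor genes tested to pass the threshold with prednisolone, against 1.76% of all genes, and 0 of 7 passed it with spironolactone (0.0181%) or between the drugs (5.17%). At an unadjusted *P* under 0.05 there were 1, 1, and 2 in edgeR, against 14.2%, 9.29%, and 22.5% of all genes, and *Cxcr1*, *Cxcr5*, *Cxcr6*, and *Ackr1* averaged under 1 CPM. *Cxcr2*, the receptor of CXCL1 and CXCL2, was at 55.6 ± 34.2 CPM with vehicle, 50.8 ± 16.2 CPM with spironolactone, and 56.5 ± 7.66 CPM with prednisolone (SD, n = 3). *Cxcr3* was at 4.55 ± 0.59, 5.31 ± 1.03, and 5.44 ± 0.25 CPM in the same order.

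*Pf4* and *Cxcl16* had the narrowest spread of the ligands, with the highest library 1.52-fold and 1.53-fold above the lowest in TPM. *Pf4* was at 276, 198, and 218 CPM with vehicle, at 238, 223, and 245 CPM with spironolactone, and at 242, 209, and 191 CPM with prednisolone, and the groups overlapped. Its log2 fold change was 0.03 (95% interval -0.24 to 0.29) with spironolactone and -0.11 (-0.38 to 0.16) with prednisolone. The platelet markers (8 genes) summed to 3.07 to 5.17 CPM, and *Gp9*, *Gp1bb*, *Gp6*, and *Tubb1* averaged under 1 CPM. The platelet sums of the 3 groups overlapped, like the *Pf4* values.

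*Cxcl16* was at 132, 136, and 128 CPM with vehicle, at 114, 166, and 158 CPM with spironolactone, and at 111, 136, and 165 CPM with prednisolone. The vehicle libraries lay inside the range of either drug group. Its log2 fold change was 0.14 (95% interval -0.19 to 0.48) with spironolactone and 0.06 (-0.28 to 0.39) with prednisolone. The spironolactone value ran from 0.040 to 0.29 with single libraries left out. *Cxcl16* overlaps *Med11* and *Zmynd15* on the opposite strand, with the same limit on assigning reads as for *Cxcl10*. Of 5 genes of proteases that cut chemokines, among them *Adam10* (140 TPM) and *Adam17* (99.5 TPM), 0 passed the threshold in any comparison in edgeR (3 at an unadjusted *P* under 0.05 with spironolactone, against 9.29% of all genes, 1 with prednisolone, against 14.2%, and 2 between the drugs, against 22.5%). *Mmp2*, a matrix protease that can inactivate CXCL12, had the smallest *P* with either drug, at 10.7 ± 2.11 CPM with vehicle, 18.1 ± 3.63 CPM with spironolactone (0.76 ± 0.18, edgeR adjusted *P* = 0.161), and 16.9 ± 2.30 CPM with prednisolone (0.66 ± 0.18, edgeR adjusted *P* = 0.0884). In DESeq2 *Mmp2* passed the threshold with spironolactone (adjusted *P* = 0.0132, where 1.60% of all genes passed) and with prednisolone (0.0172, where 4.64% passed).

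**Figure D4:**
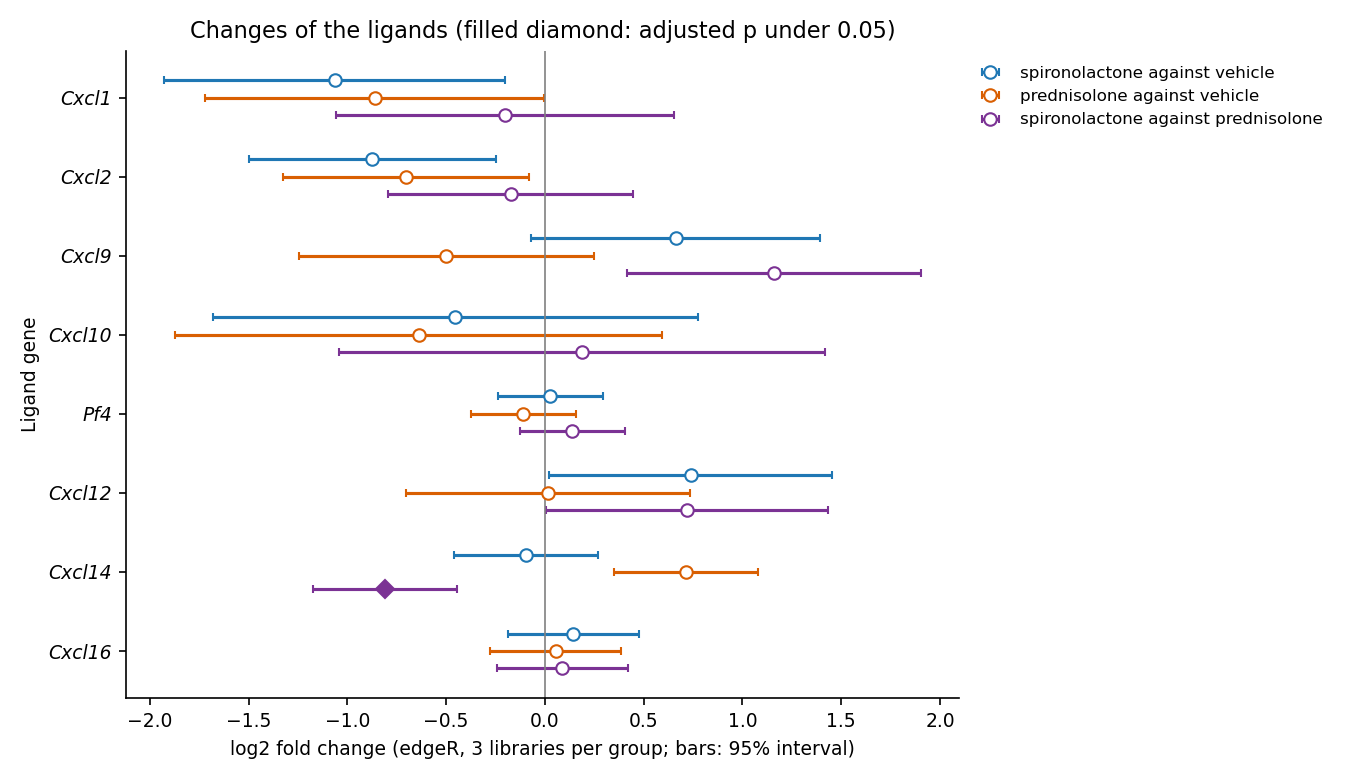
log2 fold change (x axis) of each ligand gene (y axis) in 3 comparisons, with 95% intervals derived from the edgeR test (3 libraries per group). The filled diamond has an adjusted *P* under 0.05. The interval of *Cxcl14* between spironolactone and prednisolone (-1.18 to -0.44) is the one marked, and those of *Pf4* and *Cxcl16* all include 0.

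As a description over the 9 libraries, with no test, the genes whose log2 CPM ran most alike to each ligand were sought among 10215 other genes of at least 5 CPM. For *Cxcl1* they were *Tnfaip3* (Pearson *r* = 0.98), *Vegfa* (0.96), and *Nemf* (0.96). For *Cxcl2* they were *Rabgef1* (0.98), *Zbtb11* (0.97), and *Nfkbia* (0.96). *Tnfaip3* and *Nfkbia*, which encode inhibitors of NF-kappaB, are on the list of NF-kappaB targets, and *r* between *Cxcl1* and *Cxcl2* themselves was 0.85. For *Cxcl9* they were *Naxd* (0.97), *Clec2i* (0.94), and *F11r* (0.94), and for *Cxcl10* *Slc25a22* (0.95), the antiviral gene *Rsad2* (0.95), and *Gm8995* (0.94), whereas *r* between *Cxcl9* and *Cxcl10* was 0.034. For *Cxcl12* they were *Ehd2* (0.96), the vascular receptor *Ephb4* (0.95), and the matrix gene *Sparc* (0.94). For *Cxcl14* they were *Acp5* (0.96), *Cmas* (0.95), and *Slc9a4* (0.95). For *Pf4* they were *Vat1* (0.94), *Gga2* (0.93), and *Ppp1r10* (0.91), and for *Cxcl16* *Tcn2* (0.93), *Mkrn1* (0.93), and *Pkig* (0.92). The libraries share their treatment groups, marker sums, and depth, so that these values describe a likeness of pattern and nothing more.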

How the data were processed

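RNA of sorted CD45+CD11b+ quadriceps cells was sequenced on the DNBseq platform in 9 libraries, and counts were analysed as deposited. The authors aligned reads to mm39 with HISAT2 2.2.1, and the deposited counts per gene are whole numbers from HTSeq 0.11.3 with a matched annotation, without normalization (versions from the submitters' processing notes). The annotation release and strand setting are not given in the sources used here. Lines that name no gene (17.2% to 21.8% of each library) were left out of library totals. Tables of the authors' own comparisons (DESeq2 1.32.0), which hold fold changes and p-values, were not used.

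Genes were tested with the quasi-likelihood test of edgeR 4.0.16 (R 4.3.3, glmQLFit with robust=TRUE, TMM, filterByExpr with a minimum count of 10 and a minimum total of 15, a single fit of the 9 libraries). *P* values are two-sided and were adjusted by the Benjamini-Hochberg method across 16618 genes, with a threshold of 0.05. Each SE was derived from the edgeR test, as the absolute log2 fold change divided by the square root of its F statistic. Intervals are 95%, were built from these SEs with t quantiles, and cover the spread between libraries. Alternatives used DESeq2 1.42.0, limma-voom (limma 3.58.1), other normalizations and filters, a replicate block, an *Xist* covariate, and each library left out. On simulated data with 200 genes changed 2-fold for prednisolone against vehicle, edgeR recovered 123 and called 7 unchanged genes. DESeq2 recovered 130 and called 22 unchanged genes, and limma-voom recovered 121 and called 6. TPM used the joined length of all annotated exons of each gene from GENCODE on GRCm39 (40303 symbols). Libraries of a group differed by more than sampling noise (chi-square per degree of freedom 18.7 to 61.4). RefSeq promoter windows were matched for 7 of the 8 ligands.

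The ligands and gene lists were chosen with earlier results of these data known. Pathway genes are named if past the threshold in a comparison, highest in mean CPM in their list, or of the smallest *P* with a drug. The 3 genes most alike to each ligand, and marker genes given for their sums or calls, are also named. *Ppbp* and *Adam10* were chosen after their values were seen. Some genes of the lists are not reported here.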

Additional observations from a re-analysis of the deposited data

How the results depend on the processing

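The count of ligands past the threshold was 0 for prednisolone against vehicle, 0 for spironolactone against vehicle, and 1 between the drugs. For prednisolone it was 1 with DESeq2 (4.64% of all genes), 1 with library totals (1.79%), 4 without a low-count filter (3.43%), and 0 to 1 without single libraries (0.402% to 4.83%). For spironolactone it was 1 with the 2 groups alone (0.0249% of all genes), 4 without a low-count filter (1.78%), and 0 to 1 without single libraries (0% to 0.199%). Between the drugs it was 2 with DESeq2 (10.1% of all genes), 2 with limma-voom (4.95%), 3 without a low-count filter (6.52%), 0 at an adjusted *P* under 0.01 (1.10%), and 0 to 2 without single libraries (1.35% to 11.1%). Leaving out the filter changed the estimated spread. The SE of *Cxcl3* with spironolactone went from 0.55 to 0.13 at -1.11, and that of *Cxcr4* with prednisolone from 0.098 to 0.11. The calls without a filter thus depend on that changed estimate. With the replicate number as a block, the count was 1 for prednisolone (*Cxcl14*, adjusted *P* = 0.00435), 0 for spironolactone, and 1 between the drugs, where 2.02%, 0.0481%, and 6.51% of all genes passed. Correlations of the deviations of same-numbered libraries were low (*r* from -0.038 to 0.15). Between vehicle and spironolactone, however, replicates 1 (0.12) and 3 (0.15) correlated best with their own number, and replicate 2 (0.0048) did not. Pairs of unlike number ran from -0.17 to 0.039 there. The labels do not say that numbers pair libraries, and the main fit used no block.

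Of 504 values of the ligands under the alternatives, 462 kept both the sign and the side of the threshold, 21 passed it newly, 6 lost it, and 15 changed sign, all 15 when a library was left out and none past the threshold. The cause of the sign changes was not tested. Of the 21, more came from the fit without a low-count filter than from any other single alternative. The leave-one-out log2 ranges of those that changed sign were, for prednisolone against vehicle, -0.21 to 0.041 for *Pf4*, -0.27 to 0.24 for *Cxcl12*, and -0.096 to 0.19 for *Cxcl16*. For spironolactone against vehicle they were -0.072 to 0.18 for *Pf4*, -0.77 to 0.011 for *Cxcl10*, and -0.24 to 0.062 for *Cxcl14*. Between the drugs they were -0.55 to 0.039 for *Cxcl1*, -0.40 to 0.052 for *Cxcl2*, -0.12 to 0.47 for *Cxcl10*, and -0.045 to 0.24 for *Cxcl16*. In the interferon gamma list, the 10 genes past the threshold between the drugs numbered 2 to 16 over the other alternatives and 2 to 12 without single libraries. The share of all genes past it ran from 1.10% to 10.1% and from 1.35% to 11.1% in the same fits. The alternatives for the pathway lists and genes were chosen after seeing the data.

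*Cxcl9* had 76 to 270 counts per library and *Cxcl12* 269 to 953, so that their levels have the largest counting error, whereas the other 6 had at least 1305.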
